A study of Mus musculus with 14 samples.

Results

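Transcripts of 8 cathepsins (Ctss, Ctsl, Ctsb, Ctsz, Ctsh, Ctsc, Ctsd and Ctsa), of the asparaginyl endopeptidase legumain (Lgmn) and of cystatin C (Cst3) were examined in microglia sorted from the dorsal lumbar spinal cord. The genes were taken by their symbols, and all 10 were among the 14329 genes in the deposited values and among the 12645 that passed a filter on low counts. Bulk RNA-seq had been performed on 14 libraries, each from 2000 CD45low CD11b+ CX3CR1+ cells of 6-month-old mice. WT Control ST and TASTPM Control ST had 3 libraries each, and WT K/BxN ST and TASTPM K/BxN ST had 4 each. TASTPM mice carry human transgenes for mutant APP and mutant presenilin, both driven by the murine Thy-1 promoter, which is active in neurons, so the sorted cells were not the intended site of transgene expression. WT mice lacked the transgenes. In K/BxN serum transfer (ST), serum of arthritic K/BxN mice was injected to induce joint inflammation, and Control ST used serum of mice without arthritis. The questions were whether joint inflammation was accompanied by other levels of these transcripts in dorsal horn microglia, and whether TASTPM and WT microglia differed in them.

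Cathepsins are proteases of endosomes and lysosomes. Most are cysteine proteases, whereas Ctsd is an aspartic and Ctsa a serine protease, and legumain cuts after asparagine and processes several cathepsins to their mature chains. Cystatin C is a secreted inhibitor of cysteine cathepsins and is highly expressed by microglia. Cathepsin S remains active at neutral pH, and its release by spinal microglia is known to free soluble fractalkine from neurons, which acts on CX3CR1 on microglia in neuropathic pain.

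The values are normalised counts, that is, read counts that the authors divided by a scaling factor specific to the library. The libraries held 14223015 to 20239175 reads on genes, and the 10 genes had at least 11587 reads each in every library, so that counting error was small beside the spread between libraries. The microglial identity of the cells was checked with 10 marker genes, which took 4.69% to 6.21% of the reads in the 6 Control ST libraries. In 4 libraries, the first and second of WT K/BxN ST and of TASTPM K/BxN ST, microglia markers took 1.60% to 3.86% of the reads. In the same 4 libraries, a list of monocyte and neutrophil markers took 3.01% to 5.17%, against 0.0577% to 0.138% in the other 10, although the gate was set to leave out CCR2+ and Ly6C+ cells. Of that list of 16 genes, 14 were in the deposited values and 8 passed the filter. The monocyte genes of the list were high in all 4: Ccr2 had 8537 to 27035 normalised counts there and at most 86.0 in the others. The neutrophil genes were not high in the second WT K/BxN ST library, where Ltf had 0.886 and Ngp 32.8, against 18114 to 25011 and 50469 to 63729 in the other 3. Lyz2, a lysozyme of myeloid cells, had 258065 to 536223 normalised counts in these 4 libraries and 8743 to 22933 in the others, and Chil3 had 25628 to 69026 against 5.73 to 35.2. Markers of border macrophages took 0.0697% to 0.210% of the reads in the 4 libraries, and at most 0.0116% in the others. Most of these reads in the 4 libraries fell on F13a1, with 10358 to 32194 normalised counts there and at most 969 in the others. Mrc1, the next, had 294 to 942 in the 4 libraries and up to 599 in the others, so that it did not set them apart. Markers of dendritic cells took at most 0.0468% in any library, and the most abundant, Cd209a, had 440 to 6678 normalised counts in the 4 libraries and at most 2.18 in the others, followed by Flt3 with 243 to 923 against at most 127. Neuron markers took at most 0.00232%, astrocyte markers at most 0.0139%, oligodendrocyte markers at most 0.0291% and endothelial markers at most 0.00345%. Lymphocyte markers took at most 0.00149%, and the 5 libraries without such reads allow a share of up to 2.04e-05%. Of the 8 lymphocyte markers only 1, the B cell gene Cd79a, was in the deposited values, so this share does not cover T or NK cells. The 95% Wilson interval of any share was at most 0.0294 percentage points wide, which covers counting error alone. The serum differences of the genes named in the text are therefore given with and without these 4 libraries. Libraries of TASTPM K/BxN ST are numbered as in the labels, and those of the other groups are numbered in the order of the deposited values.

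Cystatin C and the cathepsins were among the most abundant transcripts of these cells. Together, the 10 genes took 8.62% ± 0.80 (SD, n = 3) of the reads in WT Control ST and 8.66% ± 0.75 (SD, n = 3) in TASTPM Control ST. The share was 6.76% ± 1.86 (SD, n = 4) in WT K/BxN ST and 6.80% ± 1.87 (SD, n = 4) in TASTPM K/BxN ST. Within WT K/BxN ST the libraries held 4.58%, 5.88%, 8.54% and 8.04%, and within TASTPM K/BxN ST they held 4.04%, 7.41%, 7.62% and 8.14%. The lower shares were thus those of the libraries high in monocyte markers, and their part in the result was not tested.

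**Figure D1:**
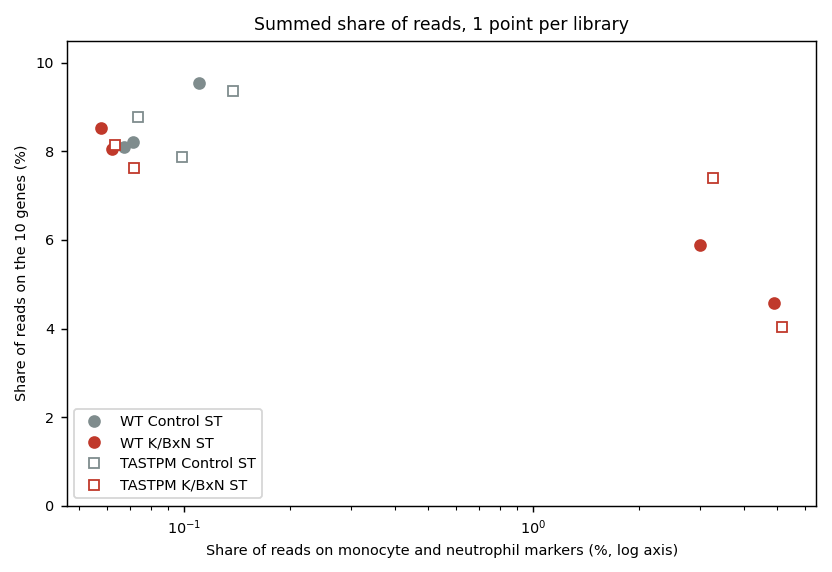
Share of reads on the 10 genes (vertical axis, %) against the share of reads on monocyte and neutrophil markers (horizontal axis, %, log scale), with 1 point per library. The 4 libraries at the right, all K/BxN ST, held 4.04% to 7.41%, and the other 10 held 7.62% to 9.55%.

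Ranked by the mean over the 14 libraries, Cst3 was first of 14329 genes and Ctss second, followed by Ctsd at rank 5, Ctsb at 16, Lgmn at 24, Ctsz at 27, Ctsc at 39, Ctsl at 51, Ctsh at 54 and Ctsa at 55. Without the 4 libraries these ranks ran from 1 to 57 in the same order. Levels were compared between genes per kilobase of the canonical transcript, as the mean over the 14 libraries. Cst3 had 512853 normalised counts per kilobase, Ctss 175171 and Ctsd 96485. The level of Cst3 exceeded that of Ctss in 14 of 14 libraries, with a mean log2 ratio of 1.53 ± 0.27 (SD), and Ctss exceeded Ctsd in 14 of 14 libraries (log2 ratio 0.88 ± 0.23). Ctsb, with 22743 per kilobase, and Lgmn, with 22007, did not differ beyond the spread between libraries (log2 ratio 0.08 ± 0.35). Next in this order were Ctsh, at 18280, Ctsc, at 15748, and Ctsz, at 15326, and from Lgmn to Ctsz no gene differed from the next beyond the spread. Ctsz exceeded Ctsa in 14 of 14 libraries (log2 ratio 0.93 ± 0.19). Ctsa had 7989 and Ctsl 5267 per kilobase, and Ctsa was the higher in 14 of 14 libraries (log2 ratio 0.67 ± 0.45). With the length of all annotated exons instead, Ctsd stood above Ctss (74168 against 45105 per kilobase), and Ctsz above Lgmn in 14 of 14 libraries (14148 against 8611 per kilobase, log2 ratio 0.75 ± 0.31). Ctsa was then above Ctsl in 11 of 14 libraries (log2 ratio 0.36 ± 0.45). Cst3 was first and Ctsl last with both lengths, whereas the order between them depended in part on the length used.

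**Figure D2:**
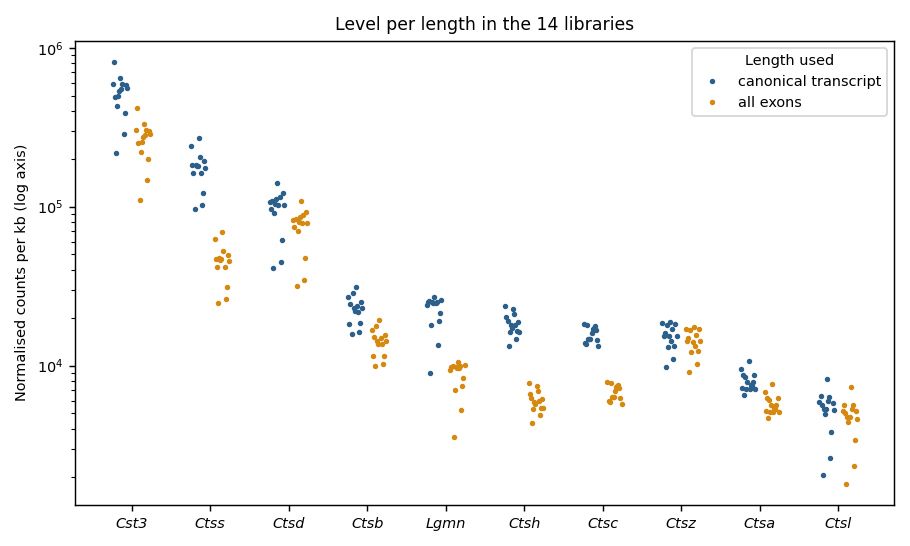
Normalised counts per kilobase (log axis) of the 10 genes in the 14 libraries, 1 point per library, with the length of the canonical transcript (blue) or of all annotated exons (orange). Cst3 stood highest with both lengths, whereas Ctss and Ctsd exchanged places, as did Lgmn and Ctsz.

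The comparison of K/BxN ST with Control ST showed no called difference for any of the 10 genes. Calls required a limma p below 0.05 after Benjamini-Hochberg adjustment and a log2 fold change beyond 1 in either direction. In WT, 0 of the 10 genes were called, with 0.00791% of all tested genes called. In TASTPM and over both genotypes, 0 of 10 were called, with 0% of all tested genes called. At an unadjusted p below 0.05, limma had 0 of the 10 genes in WT and 0 in TASTPM, where the share of all tested genes was 7.13% and 4.22%. Over both genotypes it had 2 genes, Ctsl and Ctsh, both lower, beside 9.25% of all tested genes in either direction and 3.46% lower. At the same unadjusted limit over both genotypes, edgeR had 3 of the 10 (9.58% of all tested genes) and DESeq2 4 (11.6%). After adjustment neither tool called any of the 10, where edgeR called 0% and DESeq2 1.42% of all tested genes.

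The median log2 fold change of the 10 genes was −0.36 in WT, −0.33 in TASTPM and −0.38 over both genotypes, where the median of all tested genes was 0.06, 0.01 and 0.03. The fitted difference was below 0 for 10 of the 10 genes in WT, 9 in TASTPM and 10 over both genotypes. When the libraries were scaled to the microglia markers instead, the median of all tested genes over both genotypes moved from 0.03 to 0.60 and 9 of the 10 genes were above 0. Such a scaling moves all genes of a library alike, so positions relative to that median hardly change by construction: they were −0.65 to −0.08 before and −0.64 to −0.07 after. Without the 4 libraries high in monocyte markers, the median of the 10 genes was −0.11 in WT, −0.13 in TASTPM and −0.13 over both genotypes. In bulk RNA of sorted cells, fewer cells of a type and less RNA per cell cannot be told apart.

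**Figure D3:**
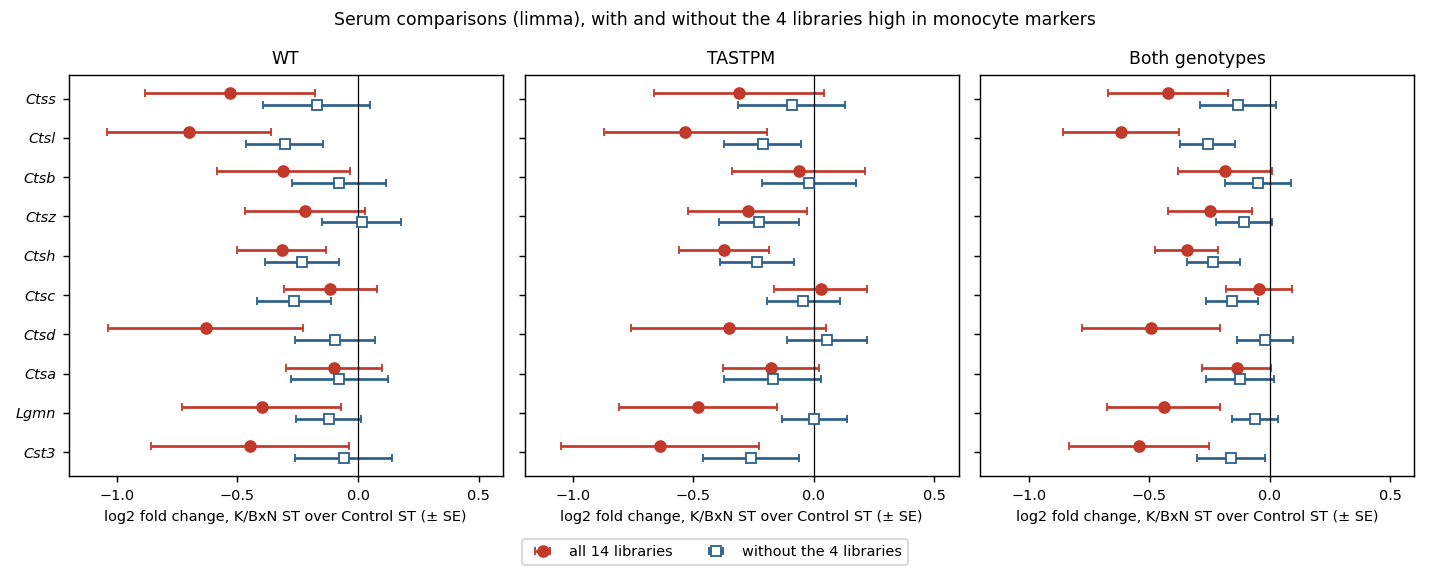
Log2 fold change of K/BxN ST over Control ST (± SE, limma) for each gene in WT, in TASTPM and over both genotypes, with all 14 libraries (red) and without the 4 libraries high in monocyte markers (blue, open). Over both genotypes the difference of Ctsd moved from −0.49 to −0.02 without those libraries and that of Ctsh from −0.34 to −0.23, whereas that of Ctsa moved only from −0.14 to −0.12.

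Ctss (chromosome 3, 95433963 to 95463717, plus strand, GRCm39) encodes cathepsin S, the protease of the fractalkine pathway, which also trims the invariant chain of MHC class II. Its normalised counts were 366645, 278380 and 221317 in the WT Control ST libraries, and WT K/BxN ST had 139189, 166395, 263208 and 239584. In TASTPM Control ST they were 330417, 248167 and 220824, and in TASTPM K/BxN ST 131389, 251495, 245844 and 247123. The groups overlapped in both genotypes: only the first and second libraries of WT K/BxN ST and the first of TASTPM K/BxN ST lay below all Control ST libraries of their genotype. The log2 fold change was −0.53 (SE 0.35, limma adjusted p = 0.764) in WT and −0.31 (SE 0.35, limma adjusted p = 0.964) in TASTPM. Two-sided exact permutation tests gave p = 0.200 in WT and p = 0.514 in TASTPM, where 4 libraries against 3 cannot go below 0.0286. Over both genotypes the log2 fold change was −0.42 (SE 0.25, limma adjusted p = 0.598), and without the 4 libraries it was −0.13 (SE 0.16). The 4 remaining K/BxN ST libraries, at 239584 to 263208, all lay within the Control ST range. Serum-associated differences of Ctss were therefore not larger than the spread between libraries.

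Ctsl (chromosome 13, 64507151 to 64518704, minus strand) encodes cathepsin L, a broad lysosomal endopeptidase. It had 48655, 35537 and 37551 normalised counts in WT Control ST, compared with 15536, 22629, 34437 and 30801 in WT K/BxN ST. TASTPM Control ST had 34671, 37853 and 33411, and TASTPM K/BxN ST 12049, 31597, 29318 and 31638. Every K/BxN ST library lay below every Control ST library of its genotype, which held for 0.237% of all tested genes. Its log2 fold change was −0.70 (SE 0.34, limma adjusted p = 0.699) in WT and −0.53 (SE 0.34, limma adjusted p = 0.964) in TASTPM. Over both genotypes it was −0.62 (SE 0.24, limma p = 0.0215, adjusted p = 0.536), and the two-sided exact permutation test within genotypes gave p = 0.0188, with 0.000816 the smallest that its 1225 arrangements allow. Leaving out the 4 libraries gave −0.26 (SE 0.11, limma p = 0.0432, adjusted p = 0.966), with p = 0.0200 in the exact permutation test, whose smallest p was then 0.01. The difference failed the adjustment over all tested genes in every fit. Of the annotated exon bases of Ctsl, 1742 are shared with Gm47123 on the opposite strand and 395 with the pseudogene Gm49230, so that its reads are uncertain to that extent.

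Ctsh (chromosome 9, 89936205 to 89958148, plus strand) encodes cathepsin H, which acts mainly as an aminopeptidase. It had 37380, 34800 and 29699 normalised counts in WT Control ST, compared with 24294, 26959, 30796 and 26880 in WT K/BxN ST. TASTPM Control ST had 38725, 33251 and 31165, and TASTPM K/BxN ST 21670, 26743, 29646 and 28479. In TASTPM the groups did not overlap, as for 2.74% of all tested genes in this direction, and in WT the third K/BxN ST library lay within the Control ST range. For Ctsh, limma gave a log2 fold change of −0.32 (SE 0.19, limma adjusted p = 0.734) in WT and −0.37 (SE 0.19, limma adjusted p = 0.964) in TASTPM. Over both genotypes it was −0.34 (SE 0.13, limma p = 0.0194, adjusted p = 0.536), with p = 0.00245 in the two-sided exact permutation test and 7 of 8 K/BxN ST libraries below all Control ST libraries of their genotype. Without the 4 libraries it was −0.23 (SE 0.11, limma p = 0.0545, adjusted p = 0.966; exact permutation test p = 0.0400). DESeq2 gave the smallest adjusted p of any of the 10 genes in any setting, 0.128, for Ctsh over both genotypes. Those permutation p-values are unadjusted, from tests of 10 genes in 6 comparisons.

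Ctsb (chromosome 14, 63358384 to 63383372, plus strand) encodes cathepsin B, an endopeptidase that also removes dipeptides from the carboxyl end. Its normalised counts were 104222 to 148491 in WT Control ST, 77933 to 119217 in WT K/BxN ST, 87721 to 128482 in TASTPM Control ST and 75733 to 136449 in TASTPM K/BxN ST. All groups overlapped, and the highest TASTPM K/BxN ST value, 136449, came from a library high in monocyte markers. In limma the log2 fold change was −0.31 (SE 0.28, limma adjusted p = 0.800) in WT and −0.06 (SE 0.28, limma adjusted p = 0.989) in TASTPM. Ctsz (chromosome 2, 174267304 to 174280832, minus strand), the carboxypeptidase cathepsin Z, had 48862 to 64759 in WT Control ST, 37667 to 62690 in WT K/BxN ST, 52860 to 63408 in TASTPM Control ST and 33621 to 61698 in TASTPM K/BxN ST. Its log2 fold change was −0.22 (SE 0.25, limma adjusted p = 0.834) in WT and −0.27 (SE 0.25, limma adjusted p = 0.964) in TASTPM. Over both genotypes the difference of Ctsb was −0.19 with all libraries and −0.05 (SE 0.14) without the 4 libraries, and that of Ctsz −0.25 and −0.11 (SE 0.12). In WT alone, Ctsz was at 0.02 without them. Neither gene differed by more than the spread between libraries. Ctsb shares 1184 annotated exon bases with Fdft1 and Ctsz shares 1084 with Nelfcd, both on the opposite strand.

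Ctsc (chromosome 7, 87927092 to 87960096, plus strand) encodes cathepsin C, the dipeptidyl peptidase that activates the serine proteases of leukocyte granules. It varied least of the 10 genes, with a highest value 1.37 times the lowest. Its normalised counts were 43030, 46036 and 46204 in WT Control ST, compared with 47517, 45048, 39104 and 35902 in WT K/BxN ST. In TASTPM Control ST they were 49317, 37361 and 37054, and in TASTPM K/BxN ST 48515, 39538, 39800 and 39516. In WT K/BxN ST the higher values were those of the 2 libraries high in monocyte markers, whereas Ctss, Ctsl, Ctsb and Ctsz had their lower values there, and in TASTPM K/BxN ST the first library stood above the rest. The fitted log2 fold change was −0.11 (SE 0.19, limma adjusted p = 0.897) in WT and 0.03 (SE 0.19, limma adjusted p = 0.992) in TASTPM. Without the 4 libraries it was −0.27 (SE 0.15) in WT and −0.04 (SE 0.15) in TASTPM, also without a call.

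Ctsd (chromosome 7, 141929646 to 141941775, minus strand) encodes cathepsin D, the main aspartic protease of lysosomes. It had 301482, 218828 and 243854 normalised counts in WT Control ST, compared with 95830, 131566, 257359 and 217138 in WT K/BxN ST. TASTPM Control ST had 226617, 205813 and 232456, and TASTPM K/BxN ST 87379, 194836, 222133 and 237826. The 4 libraries high in monocyte markers all lay below the other 10, which held for 2.51% of all tested genes, and the remaining K/BxN ST libraries all lay within the range of the 6 Control ST libraries of both genotypes. Against the Control ST range of its own genotype, the fourth WT K/BxN ST library lay below and the fourth TASTPM K/BxN ST library above. The comparison of sera gave a log2 fold change of −0.63 (SE 0.40, limma adjusted p = 0.760) in WT and −0.35 (SE 0.40, limma adjusted p = 0.964) in TASTPM. Over both genotypes it was −0.49 (SE 0.29) with all libraries and −0.02 (SE 0.12) without those 4, and in TASTPM alone it was then 0.05. Ctsd shares 808 annotated exon bases with Gm49369 on the same strand.

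Over the 14 libraries Ctsd and Ctsc varied least alike of the 10 genes, a contrast that rested on the 4 libraries high in monocyte markers. The promoters of this pair are shown, and whether promoter sequence had a part in that contrast was not tested. Each window is the 250 bases upstream of the canonical transcript start, on the strand of the gene, and holds no annotated exon bases. The Ctsd window is chr7:141941776-141942025 (minus strand) and the Ctsc window is chr7:87926842-87927091 (plus strand), both from GRCm39, and capitals mark the E-box, the GC box and the ETS core, spelled out after the sequences, on either strand.
Ctsd: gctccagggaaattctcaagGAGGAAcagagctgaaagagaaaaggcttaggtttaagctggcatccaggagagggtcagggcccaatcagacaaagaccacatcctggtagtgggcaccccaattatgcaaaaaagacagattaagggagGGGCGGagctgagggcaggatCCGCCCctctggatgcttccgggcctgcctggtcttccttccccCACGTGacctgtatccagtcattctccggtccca
Ctsc: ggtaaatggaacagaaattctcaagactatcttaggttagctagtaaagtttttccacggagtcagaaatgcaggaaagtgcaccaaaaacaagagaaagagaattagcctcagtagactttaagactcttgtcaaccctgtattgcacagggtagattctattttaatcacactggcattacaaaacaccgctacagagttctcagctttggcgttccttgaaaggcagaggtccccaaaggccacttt
CACGTG, the E-box that TFEB and related regulators of lysosomal genes bind, lay 34 to 29 bases upstream of the Ctsd start and in no other window of the 10 genes, and was held on either strand by 6.26% of 21757 promoter windows of the same length and by 8.14% of the 10677 windows of tested genes. GGGCGG, the GC box, was in 6 of the 10 windows, those of Ctss, Ctsd, Ctsb, Ctsl, Ctsz and Lgmn, and in 36.3% of all windows and 50% of those of tested genes. GAGGAA, the core bound by ETS factors, was in 5, those of Ctss, Ctsd, Ctsb, Ctsh and Cst3, and in 22.9% of all windows and 23% of those of tested genes. The longer GAGGAAGT, which contains that core, was in 0 of 10 and in 2.08% of all and 2.25% of those of tested genes. The Ctsc window held none of these letters. The matches describe these windows alone.

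Ctsa (chromosome 2, 164674778 to 164682961, plus strand) encodes the serine carboxypeptidase cathepsin A, which also stabilises the lysosomal enzymes Neu1 and Glb1. Its normalised counts were 26106 to 39509 in WT Control ST, 26148 to 32242 in WT K/BxN ST, 26535 to 35210 in TASTPM Control ST and 24098 to 31137 in TASTPM K/BxN ST. All WT K/BxN ST values lay within the Control ST range, and 2 of the 4 TASTPM K/BxN ST libraries lay below the Control ST range. Its fitted log2 fold change was −0.10 (SE 0.20, limma adjusted p = 0.912) in WT and −0.18 (SE 0.20, limma adjusted p = 0.964) in TASTPM. Leaving out the 4 libraries gave −0.08 (SE 0.20) and −0.17 (SE 0.20), so that Ctsa hardly depended on them. It shares 1252 annotated exon bases with Pltp and 649 with Neurl2 on the opposite strand.

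Lgmn (chromosome 12, 102359122 to 102414682, minus strand) varied little under Control ST, with 87754, 79834 and 81832 normalised counts in WT and 77433, 81674 and 82469 in TASTPM. WT K/BxN ST had 43460, 62016, 69573 and 83721, and TASTPM K/BxN ST 29241, 58288, 80941 and 80316. The coefficient of variation was 4.19% over the 6 Control ST libraries, the smallest of the 10 genes, against 25.9% in WT K/BxN ST and 39.2% in TASTPM K/BxN ST. The 4 libraries high in monocyte markers again lay below all others. Between the sera the log2 fold change was −0.40 (SE 0.33, limma adjusted p = 0.790) in WT and −0.48 (SE 0.33, limma adjusted p = 0.964) in TASTPM. Over both genotypes it was −0.44 (SE 0.23) with all libraries and −0.06 (SE 0.09) without those 4.

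Cst3 (chromosome 2, 148713635 to 148717887, minus strand), which encodes the inhibitor, had 594562, 510644 and 550107 normalised counts in WT Control ST, compared with 264558, 358989, 541870 and 515090 in WT K/BxN ST. TASTPM Control ST had 545389, 754014 and 452294, and TASTPM K/BxN ST 199990, 399390, 458056 and 496491. As for Ctsd and Lgmn, the 4 libraries high in monocyte markers were the lowest of all 14. The serum comparison gave a log2 fold change of −0.45 (SE 0.41, limma adjusted p = 0.806) in WT and −0.64 (SE 0.41, limma adjusted p = 0.964) in TASTPM. Over both genotypes it was −0.54 (SE 0.29, limma p = 0.0820, adjusted p = 0.563), and the two-sided exact permutation test gave p = 0.0376. With the 4 libraries left out it was −0.16 (SE 0.14; exact permutation test p = 0.340). Over both genotypes the fitted differences of the inhibitor and of the proteases were all below 0, and none was called. In TASTPM alone, the fitted difference of Ctsc was above 0. Over both genotypes, scaling to the microglia markers put 9 of the 10 above 0 and moved the median of all tested genes to 0.60.

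**Figure D4:**
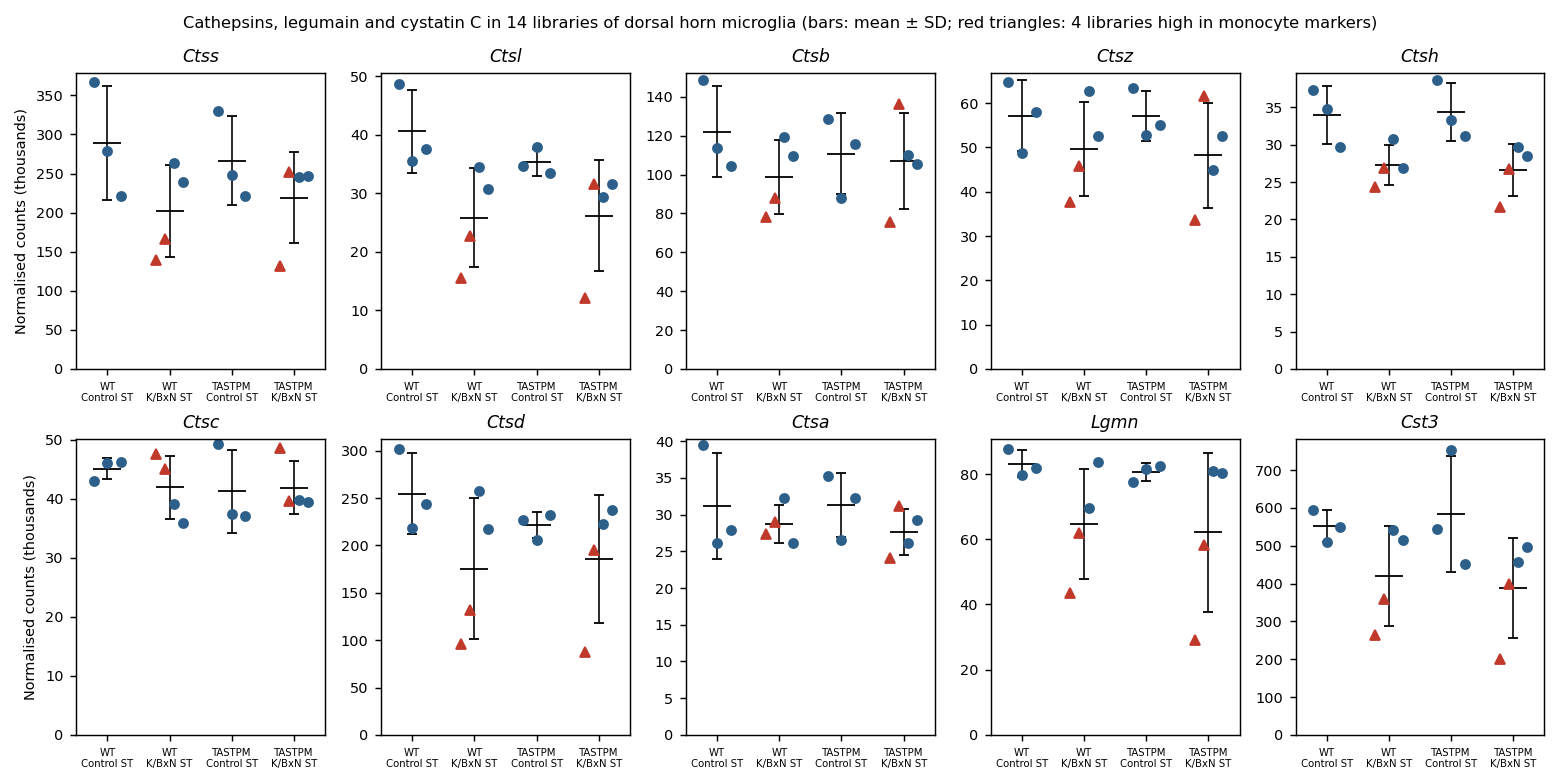
Normalised counts (divided by 1000, linear axis from 0) of the 10 genes in the 14 libraries by group, 1 symbol per library, with the group mean ± SD. Red triangles mark the 4 libraries high in monocyte markers, which were the lowest of all for Ctsd, Lgmn and Cst3 but not for Ctsc.

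The 10 genes thus varied unequally between libraries. From the lowest to the highest library, values differed 4.04-fold for Ctsl, 3.77-fold for Cst3, 3.45-fold for Ctsd, 3.0-fold for Lgmn and 2.79-fold for Ctss. The range was 1.96-fold for Ctsb, 1.93-fold for Ctsz, 1.79-fold for Ctsh and 1.64-fold for Ctsa. For 9 of the 10 genes the lowest value was in the first TASTPM K/BxN ST library, in which the mean log2 level of the microglia markers was 1.90 below that of Control ST. In that library the log2 difference from the Control ST mean was −1.64 for Ctsl, −1.49 for Cst3, −1.48 for Lgmn, −1.44 for Ctsd and −1.05 for Ctss, but only −0.36 for Ctsa and 0.18 for Ctsc. All 10 genes were thus less low there than the microglia markers were. The same held for all 10 genes in the second TASTPM K/BxN ST library. It did not hold in the WT libraries high in monocyte markers. Relative to the microglia markers, Ctsd was at −0.19 and Ctsl at −0.17 in the first. In the second, Ctsd was at −0.28, Ctsl at −0.17, Ctss at −0.15 and Cst3 at −0.08. Of these values only the −0.28 of Ctsd lay below the range of the Control ST libraries, where the lowest Ctsd value was −0.194. The first WT Control ST library, in turn, was the highest of all for 7 genes: Ctss, Ctsd, Ctsb, Ctsl, Ctsz, Ctsa and Lgmn.

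**Figure D5:**
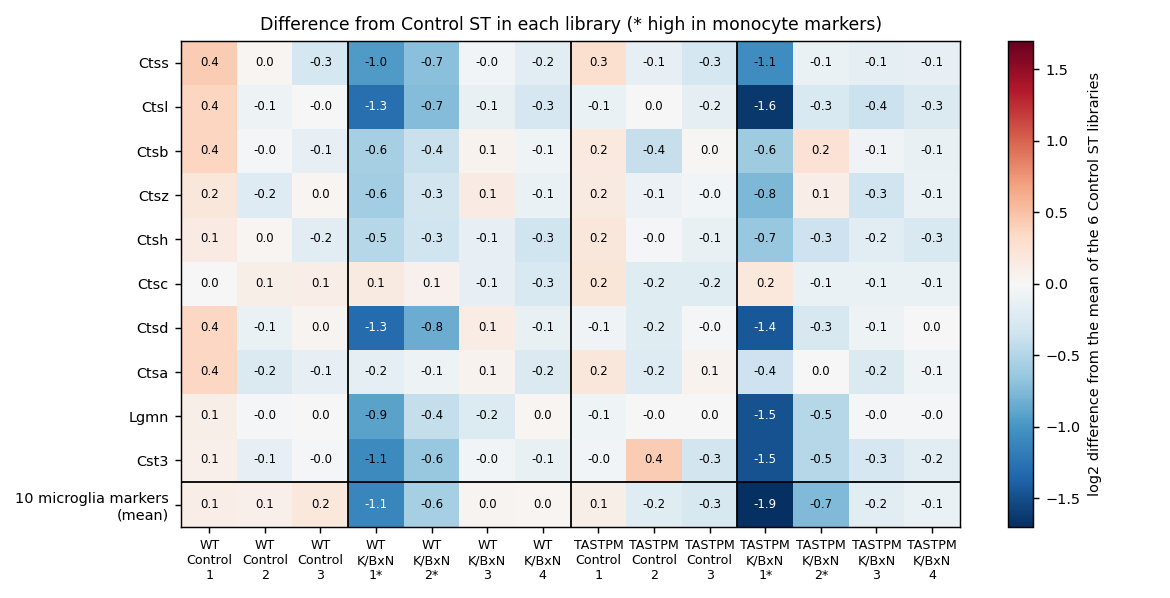
Log2 difference of each gene from its mean over the 6 Control ST libraries (colour and printed value) in each library, with the mean of the 10 microglia markers in the bottom row. In the first TASTPM K/BxN ST library the values ran from −1.64 for Ctsl to 0.18 for Ctsc, with −1.90 for the microglia markers.

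Likeness between genes was measured as the SD over the 14 libraries of their log2 ratio. It is small where 2 genes vary together, and also where both vary little. Among the 10 genes, the SD of the log2 level itself ran from 0.16 for Ctsc to 0.53 for Ctsl. Within the 10 genes, Ctsd and Ctsl were most alike (0.15), followed by Ctsb and Ctsz (0.15), and Ctsd and Ctsc were least alike (0.62, and 0.20 without the 4 libraries). Both ends of this order rested on the 4 libraries: without them Ctsa and Ctsz were most alike (0.11), with Ctsd and Ctsl at 0.15 and Ctsb and Ctsz at 0.17, and Ctsb and Cst3 were least alike (0.33). Among 2911 other tested genes with a mean of at least 1000 normalised counts, those nearest to Ctss were Ndfip1 (0.14), Itm2b (0.15), Selenos (0.16), Selenop (0.17) and Rnf13 (0.17). The nearest gene was C1qc, a chain of complement component C1q, for Ctsd (0.16) and Cd81, a tetraspanin, for Cst3 (0.14). It was Serinc3 for Lgmn (0.13), Abhd6 for Ctsl (0.12), Selenos for Ctsb (0.14) and Ctsz (0.13), and Creg1 for Ctsa (0.12). For Ctsh it was Cd53, a leukocyte tetraspanin (0.08), and for Ctsc it was Elavl1, an RNA-binding protein (0.09). All these genes share the libraries and their composition.

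TASTPM and WT microglia did not show a called difference in any of the 10 genes. Under Control ST the median log2 difference of the 10 genes, TASTPM over WT, was −0.08, with 6 of 10 below 0, where the median of all tested genes was 0.04. The differences ranged from −0.19 to 0.05, and without the first WT Control ST library the median was 0.04. None of the 10 had an unadjusted p below 0.05 in limma, which 5.57% of all tested genes had, and 0% of all tested genes were called. With 3 libraries against 3 an exact permutation test cannot go below 0.100. Under K/BxN ST the median difference was −0.03, with a range of −0.14 to 0.11, again with none of the 10 at an unadjusted p below 0.05 in limma (1.91% of all tested genes). That median depended on single libraries: it was 0.18, with 1 of 10 genes below 0, without the first TASTPM K/BxN ST library, 0.05 without the third of WT K/BxN ST and −0.13 without the first of WT K/BxN ST. Without the 4 libraries high in monocyte markers it was −0.06, with 7 of 10 below 0. Over both sera the median was −0.03, and 0 of 10 had an unadjusted p below 0.05 (4.68% of all tested genes). Ctss differed by −0.11 (SE 0.38, limma adjusted p = 0.995) under Control ST. It differed by 0.11 (SE 0.33, limma adjusted p = 1.00) under K/BxN ST. Ctsd, which had the largest difference under Control ST, differed by −0.19 (SE 0.43, limma adjusted p = 0.991). Scaling to the microglia markers put all 10 genes above 0 in both sera, with the median of all tested genes at 0.29 under Control ST and 0.33 under K/BxN ST. Their own medians were then 0.18 and 0.31.

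Whether the serum difference itself differed between genotypes was tested as an interaction. For 0 of 10 genes was it called, with 0% of all tested genes called, and 0 of 10 had an unadjusted p below 0.05 in limma (3.04% of all tested genes). The interaction, as the log2 fold change in TASTPM minus that in WT, ranged from −0.19 for Cst3 (SE 0.58, limma adjusted p = 0.999) to 0.28 for Ctsd (SE 0.57, limma adjusted p = 0.999). For Ctss the value was 0.22 (SE 0.50, limma adjusted p = 0.999). Leaving out the 4 libraries, these values were −0.20 (SE 0.28) for Cst3, 0.15 (SE 0.23) for Ctsd and 0.08 (SE 0.31) for Ctss. The standard error exceeded the interaction of each of these 3 genes in both fits.

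Other genes of the same pathway were taken from lists written by hand. Of 6 other cathepsins 4 were in the deposited values and 3 were tested, and none was called in any comparison. Over both genotypes the log2 fold change was −0.45 (SE 0.27, limma adjusted p = 0.598) for Ctsf and −0.50 (SE 0.22, limma adjusted p = 0.536) for Ctso, both cysteine proteases of lysosomes, and −0.33 (SE 0.54) for Ctse, an aspartic protease. Ctsf had 3020 to 7288 normalised counts in the 4 libraries high in monocyte markers and 7844 to 12924 in the other 10. Ctso had 2408 to 4425 in these 4 libraries and 4992 to 7849 in the others. Both were thus lower there than in any other library, as were Ctsd, Lgmn and Cst3. Omission of those 4 libraries turned the difference to 0.03 for Ctsf and put it at −0.12 for Ctso and −0.88 for Ctse.

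Of 11 other inhibitors of such proteases 5 were in the deposited values and 4 were tested, and 0 were called. Cstb, the cytosolic cystatin B, had 1527 to 1996 normalised counts in the 4 libraries and 397 to 1473 in the others, and its log2 fold change over both genotypes was 0.44 (SE 0.39, limma adjusted p = 0.718). Cst7, cystatin F, which inhibits cathepsin C, had a log2 fold change of −1.04 (SE 0.45, limma adjusted p = 0.684) in WT and 0.97 (SE 0.45, limma adjusted p = 0.964) in TASTPM, and −0.03 (SE 0.32) over both. Serpinb9, an inhibitor of granzyme B, had −0.43 (SE 0.41, limma adjusted p = 0.738) over both genotypes. Serpinb1a, an inhibitor of neutrophil serine proteases that did not pass the filter, had 267 to 3231 normalised counts in the 4 libraries and at most 28.7 in the others. Without the 4 libraries the differences over both genotypes were −0.23 for Cstb and 0.03 for Serpinb9, each of the other sign than with all libraries, and −0.47 for Cst7, which was then at −1.19 in WT and 0.25 in TASTPM.

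Of 7 genes around fractalkine 6 were in the deposited values and 5 were tested, and 0 were called. Cx3cr1, the fractalkine receptor and a marker of the sort gate, had 35235 to 107725 normalised counts in the 4 libraries and 97396 to 181794 in the others. Its log2 fold change over both genotypes was −0.46 (SE 0.30, limma adjusted p = 0.615) and 0.06 without the 4 libraries. Cd74, the invariant chain that cathepsin S trims, had 26822 to 105860 in the 4 libraries and 971 to 4515 in the others. Its log2 fold change was 3.10 (SE 1.02, limma adjusted p = 0.528) over both genotypes and 0.71 without them. Mapk14, the p38 kinase, had 0.19 (SE 0.15, limma adjusted p = 0.680), and 0.24 without them. Cd74 was thus higher in these 4 libraries than in any other, where Ctss was not.

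Of 14 genes for lysosomal sorting, membranes and regulation all 14 were in the deposited values and 13 were tested, and 0 were called. Psap, the saposin precursor, had a log2 fold change over both genotypes of 0.08 (SE 0.18, limma adjusted p = 0.901). Lamp1 had −0.09 (SE 0.14, limma adjusted p = 0.845) and Lamp2 −0.23 (SE 0.15, limma adjusted p = 0.615), both membrane proteins of lysosomes. Glb1, a galactosidase that Ctsa stabilises, had −0.29 (SE 0.18, limma adjusted p = 0.615). The median of the sorting list was −0.13, with 11 of 13 genes below 0. With the 4 libraries left out it was −0.015, and the differences were then −0.015 for Psap, 0.02 for Lamp1, −0.05 for Lamp2 and −0.02 for Glb1.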

How the data were processed

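Bulk RNA-seq of sorted dorsal horn microglia comprised 14 libraries in 4 groups of 3 or 4 mice. The submitters' processing notes name FastQC 0.11.9, HISAT2 2.1, featureCounts 1.5.2, Picard, DESeq2 and the build GRCm39. The authors deposited normalised counts, a signal made by scaling each library's read counts by a size factor, and not the counts themselves. Whole reads were recovered from them for 100% of the values (tolerance 0.01), and 7 repeated entries with equal values were left out. Strandedness of the counting is not given in the sources used here.

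The log2 of the normalised count plus a pseudocount of 1 was analysed, which understates the differences of low genes. A gene was tested if 7 or more of the 14 libraries held 10 or more of its reads, which left 12645 genes. The test was limma-trend (limma 3.58.1, R 4.3.3) in 1 fit to the 4 groups, with Benjamini-Hochberg adjustment. For read counts the plan was edgeR's quasi-likelihood test, but because the unit deposited is a signal, edgeR 4.0.16 and DESeq2 1.42.0 became alternatives on the recovered reads. For serum over both genotypes, limma called 0 genes (1170 at an unadjusted p below 0.05), edgeR 0 (1212) and DESeq2 179 (1467). Two-sided exact permutation tests over libraries were added for each of the 10 genes, and the fits were tested on simulated data. Shares of reads have 95% Wilson intervals, with 3 reads as the limit that a count of 0 allows. Totals were 14223015 to 20239175 reads on genes.

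Groups come from the labels, and each column was joined to its group by its header. Labels state no separate cultures or animals for the libraries, and the study describes them as individual mice, so p-values measure the spread between these samples. The 10 genes and all lists were chosen with earlier results of these data known. All 10 genes are named. From each related list the text names genes called in any comparison, the 3 with the highest mean and the 2 with the smallest p for serum over both genotypes, and from each marker list that moves with a result the 2 genes with the highest mean. The nearest 5 genes by likeness are named for Ctss and the nearest 1 for each other gene.

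The 4 libraries set apart had a share of monocyte and neutrophil markers over 5 times that of the highest Control ST library, a limit of 0.690%. Alternatives covered the normalisation, the pseudocount, the filter, the test, the libraries in the fit, covariates for monocyte and neutrophil or sex-linked expression, and the omission of each library. Positions, lengths and promoters are from GRCm39 with the GENCODE annotation vM39, which is later than the one the authors used.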

Additional observations from a re-analysis of the deposited data

Results flagged for a closer look

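In TASTPM K/BxN ST, the first library stood apart from the other 3 for 3 genes by Dixon's criterion, under which the gap to the nearest library, divided by the range of the group, must exceed 0.829 for 4 libraries. Ctss had 131389 normalised counts there, with a gap of 0.953 of the range. Ctsl had 12049, with a gap of 0.882 of the range. Ctsc, the only one of the 3 on the high side, had 48515.4, with a gap of 0.968 of the range. Of 22 groups examined, these 3 met the criterion, which chance alone meets in about 1 in 20. The library is among the 4 high in monocyte markers, and the part of those markers in these values was not tested.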

How the results depend on the processing

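None of the 10 genes was called in any comparison under any of the 28 or 29 alternatives tried for it. No paired analysis was possible because no replicate number in the labels is shared between groups. The median difference of the 10 genes moved by more than the spread between libraries mainly with the scaling to microglia markers, which put it at 0.17 for serum in WT, 0.28 for serum in TASTPM, 0.19 for serum over both genotypes, 0.31 for genotype under K/BxN ST and 0.26 for genotype over both sera. That scaling also put the median of all tested genes at 0.58 for serum in WT, 0.61 in TASTPM and 0.60 over both genotypes. With the monocyte and neutrophil score as a covariate the median for serum over both genotypes was −0.10. A sex-linked score as a covariate moved the median from −0.33 to −0.17 for serum in TASTPM, from −0.08 to −0.21 for genotype under Control ST and from 0.04 to 0.24 for the interaction. Scaling to microglia markers without the 4 libraries, an alternative chosen after seeing the data, gave −0.017 in WT and −0.068 over both genotypes. Leaving out each library in turn kept the median for serum between −0.45 and −0.23 in WT, −0.41 and −0.11 in TASTPM, and −0.42 and −0.29 over both genotypes. For genotype the same omissions gave −0.13 to 0.04 under Control ST, −0.13 to 0.18 under K/BxN ST and −0.08 to 0.06 over both sera, and the median interaction ran from −0.08 to 0.18. Of 2000 values of single genes under alternatives all stayed on the same side of the threshold, 231 had the other sign, 96 of them with 1 library left out and 49 with the scaling to microglia markers, and the smallest adjusted p was 0.128. Groups were of 3 or 4 libraries, and 4 of the 8 K/BxN ST libraries were high in monocyte markers. A large difference that varied between libraries also went uncalled. Over both genotypes Ly6c2 had a log2 fold change of 6.43 (SE 2.23, limma adjusted p = 0.530). Differences of the 10 genes may thus have gone undetected, and the lack of a call does not show equal levels.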
